A study of Mus musculus with 35 samples.

Results

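The genes described here are those that build and load MHC class II molecules in the mouse lung. They were chosen by name and are 10 of the 54532 genes in the count table, namely H2-Aa, H2-Ab1, H2-Eb1, H2-Eb2, H2-DMa, H2-DMb1, H2-Oa, H2-Ob, Cd74 and Ciita. RNA of the whole lung was sequenced after female and male mice had lived for 6 weeks in normoxia or in hypoxia at 10% oxygen. Caveolin-1 (gene Cav1), the coat protein of caveolae, was present in Control mice, missing in Cav1-KO mice, or restored only in endothelial cells in Cav1-RC mice, and the comparisons address how its loss or its endothelial return and chronic hypoxia change gene expression in a model of pulmonary arterial hypertension.

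Control mice were of the B6/129SJ2 background and Cav1-KO mice carried the global Cav1(tm1Mls/)J knockout. Cav1-RC mice carried the knockout in all other cell types and came from another laboratory than the knockout and Control mice, so strain origin and genotype cannot be told apart in comparisons with Cav1-RC. The promoter behind the endothelial copy is not given in the sources used here. All animals were adults at least 3 months old. The 34 libraries fell into 12 groups of genotype, sex and oxygen level, with 3 libraries in each of 10 groups and 2 libraries in each of the other two, the female normoxia groups of Cav1-KO and Cav1-RC. Each library is taken as an animal, and p-values measure the spread between these libraries.

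MHC class II molecules are pairs of an alpha and a beta chain that show peptides from the endocytic route to CD4+ T cells. In mice H2-Aa pairs with H2-Ab1 to give the A molecule, while H2-Eb1 is the beta chain of the E molecule and H2-Eb2 a further E beta-like chain. Cd74, the invariant chain, escorts new class II dimers to the endosome, where H2-DMa and H2-DMb1 form the DM editor that exchanges its remnant for peptides, and H2-Oa and H2-Ob form the DO molecule that restrains DM. Ciita is the transactivator that switches class II genes on without binding DNA itself, through factors seated on the X and Y boxes of their promoters. B cells, dendritic cells and activated macrophages carry class II in the lung, and alveolar type 2 epithelial cells are known to carry it too.

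The 8 H2 members lay on chromosome 17 within the H2 complex, the mouse major histocompatibility locus, and all 10 members were annotated as protein coding. In the mm10 coordinates of the files, H2-Oa (ENSMUSG00000024334) lay at chr17:34092340-34095234, H2-DMa (ENSMUSG00000037649) at chr17:34135182-34139101, H2-DMb1 (ENSMUSG00000079547) at chr17:34153072-34160230 and H2-Ob (ENSMUSG00000041538) at chr17:34238903-34245907, all on the plus strand. H2-Ab1 (ENSMUSG00000073421) lay at chr17:34263209-34269418, H2-Eb1 (ENSMUSG00000060586) at chr17:34305877-34316199 and H2-Eb2 (ENSMUSG00000067341) at chr17:34325665-34340229, also on the plus strand. H2-Aa (ENSMUSG00000036594) lay at chr17:34282744-34287827 on the minus strand. Ciita (ENSMUSG00000022504) lay on chromosome 16 at chr16:10480059-10528418, on the plus strand.

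The X and Y boxes are where the factors that recruit Ciita sit, so promoters of the members were searched for them, and the stretches that held both are shown. Promoter windows from 250 bases before to 50 bases after the transcript start were taken from RefSeq on GRCm38.p6, and 7 of the 10 members had such a window (none was at hand for H2-Ab1, Cd74 or Ciita). The strand of the gene was searched for the letters GNAAC, the core of the X box, followed within 20 to 35 bases by ATTGG, the core of the Y box. Windows of 6 members held this arrangement. The arrangement was on that strand in neither of the windows of H2-DMa. Both of these windows lie upstream of the gene start given above and so may not cover the start used in the lung. The stretch shown for H2-DMb1 lies downstream of the gene start given above, and that of H2-Oa runs across it. In each sequence the capitals mark the X box core and the Y box core, and the text runs 5′ to 3′ on the strand of the gene.
H2-Aa, chr17:34287859-34287916, minus strand: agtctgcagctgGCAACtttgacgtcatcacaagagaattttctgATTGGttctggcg
H2-Eb1, chr17:34305764-34305820, plus strand: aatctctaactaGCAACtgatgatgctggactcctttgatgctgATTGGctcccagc
H2-Eb2, chr17:34325531-34325587, plus strand: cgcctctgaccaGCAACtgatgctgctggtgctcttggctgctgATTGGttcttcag
H2-DMb1, chr17:34153085-34153142, plus strand: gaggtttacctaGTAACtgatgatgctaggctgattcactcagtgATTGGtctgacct
H2-Oa, chr17:34092291-34092348, plus strand: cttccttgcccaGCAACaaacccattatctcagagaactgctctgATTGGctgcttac
H2-Ob, chr17:34238806-34238860, plus strand: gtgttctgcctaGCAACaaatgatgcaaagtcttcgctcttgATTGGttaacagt

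The cores of the X and Y boxes stood 25 bases apart in H2-Ob, 27 in H2-Eb1 and H2-Eb2, and 28 in H2-Aa, H2-DMb1 and H2-Oa. Among 32851 windows of the same length, 436 or 1.33% held the arrangement on the strand of the gene, and 878 or 2.67% on either strand. On either strand 37.4% held ATTGG and 84.8% held GNAAC, with or without the other. The spacing range was set after the sequences of the members had been read, so the match is a description of these windows and not evidence of binding. H2-Eb1 and H2-Eb2 share this layout although their levels in the lung lay far apart, as described next.

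Depth ranged from 12425535 to 33343006 counted read pairs a library. Cav1 stood at 284 to 394 FPKM (fragments per kilobase of gene length, scaled to library size) in the 12 Control libraries, at 0.461 to 1.13 in the 11 labelled Cav1-KO and at 0.423 to 1.89 in the 11 labelled Cav1-RC, so Cav1 counts did not separate Cav1-RC from Cav1-KO, and whether reads of the restored copy could be counted on this gene was not tested. Groups are therefore given as labelled throughout. Ddx3y, from the Y chromosome, or Xist, from the inactive X, was out of place for the labelled sex in 4 libraries. The libraries labelled male Cav1-RC normoxia 1 and 2 and male Control hypoxia 2 held 0 to 0.0744 FPKM of Ddx3y and 41.3 to 48.1 of Xist, and so did not match their label. The library labelled female Cav1-KO hypoxia 2 held 39.1 FPKM of Xist, which matched its label. Only its Ddx3y was out of place, at 1.49 FPKM beside 26.5 to 27.2 in male Cav1-KO hypoxia. Lastly, the names of 12 of the 34 libraries carry a number that the study also lists for an animal run on its western blots, and for 12 of 12 the blot list gives the sex, genotype and oxygen level of the label. Neither the labels nor the study states this link, which is taken here from the numbers alone. These included all 6 Cav1-KO hypoxia libraries and all 3 of male Control hypoxia, but only the first library of the female Control groups at either oxygen level and of female Cav1-RC normoxia. They are called blotted animals here.

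All 10 members were detected in each library. Cd74 (ENSMUSG00000024610, plus strand of chr18:60803848-60812646) was the most abundant at 987 FPKM on average (SD 373, n = 34, range 379 to 1987), and the classical chains followed with H2-Eb1 at 418.7 (SD 86.6, range 285 to 668), H2-Ab1 at 365 (SD 75.0, range 250 to 564) and H2-Aa at 278 (SD 53.8, range 194 to 450). The DM editor lay well below the chains it serves, with H2-DMb1 at 49.5 FPKM (SD 12.6) and H2-DMa at 46.2 (SD 13.0). H2-Ob stood at 8.32 FPKM (SD 2.70), Ciita at 6.44 (SD 3.39), H2-Oa at 3.13 (SD 1.77) and H2-Eb2 at 1.65 (SD 1.11). This order held within most libraries. H2-Eb1 exceeded H2-Ab1, H2-Ab1 exceeded H2-Aa, and H2-Aa exceeded H2-DMb1 in 34 of 34 libraries, and Cd74 exceeded H2-Eb1 in 33. The means of H2-Eb1 and H2-Ab1, of H2-DMb1 and H2-DMa, of H2-Ob and Ciita, of Ciita and H2-Oa, and of H2-Oa and H2-Eb2 differed by less than the larger SD of the pair. Within libraries H2-DMb1 exceeded H2-DMa in 25 of 34, while H2-Ob exceeded Ciita in 28, Ciita exceeded H2-Oa in 31 and H2-Oa exceeded H2-Eb2 in 30.

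The 10 genes differed in how far they ranged across the 34 libraries. The highest library exceeded the lowest 2.32-fold for H2-Aa, 2.26-fold for H2-Ab1 and 2.34-fold for H2-Eb1, against 2.93-fold for H2-DMa and 2.89-fold for H2-DMb1. Cd74 ranged 5.24-fold and Ciita 6.202-fold. The sparsest genes ranged most, with 14.2-fold for H2-Eb2 (14 counts in its lowest library) and 17.1-fold for H2-Oa (18 counts in its lowest), so counting error is a larger part of their spread. H2-Oa lies whole within the antisense gene BC051537, which stood at 0 to 0.161 FPKM, and Ciita shares 25888 bases with Dexi on the other strand at 7.03 to 23.04 FPKM. Reads were counted with default settings, which do not use strand, so reads of such partners cannot be told apart.

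**Figure D1:**
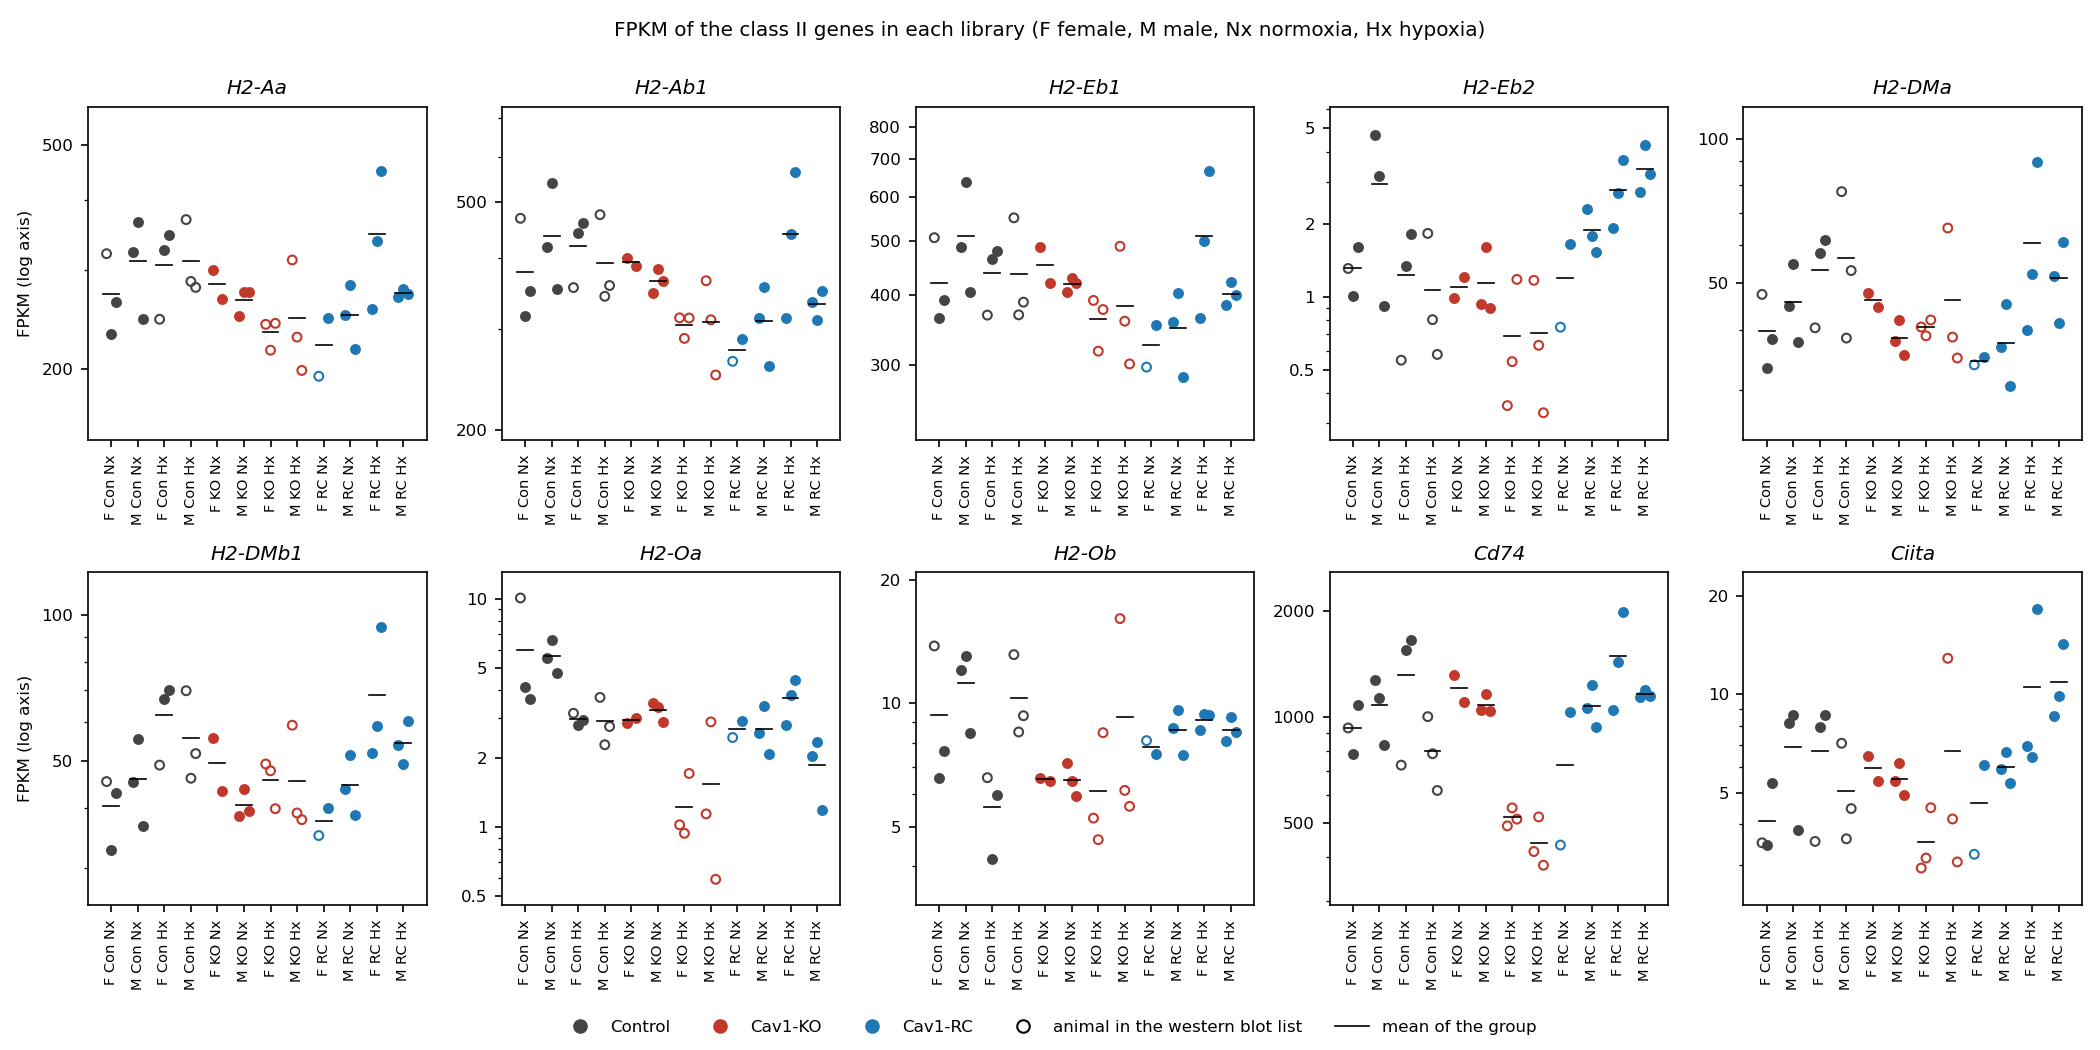
FPKM of each member on a log axis, 1 point a library, in the 12 groups of sex, genotype and oxygen level (n = 3, or 2 in the female normoxia groups of Cav1-KO and Cav1-RC); open points are blotted animals and short lines are group means. Cd74 sits low in the Cav1-KO hypoxia libraries (379 to 552 FPKM), among which only 1 female Cav1-RC normoxia library (432 FPKM) falls. H2-Eb2 sits high in the Cav1-RC hypoxia libraries (1.93 to 4.25 FPKM), though male Control normoxia, at 0.918 to 4.71 FPKM, reaches higher.

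Comparing libraries labelled Cav1-RC with Cav1-KO in hypoxia gave the most calls among the members. In female lungs H2-Eb2, H2-Oa, Cd74 and Ciita rose, and in male lungs H2-Eb2 and Cd74 rose. A gene was called where its absolute log2 fold change exceeded 1 and its Benjamini-Hochberg adjusted p in edgeR's quasi-likelihood test, over all genes tested, was under 0.05. By this rule 4 of 10 members were called in females, where 8.98% of all tested genes were called in either direction, and 2 of 10 in males, where 14.8% were called. The male share of members was thus near that of all genes. Fewer class II cells and less RNA per cell cannot be told apart in RNA of whole lung, here or in any comparison that follows.

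Cd74, the invariant chain, stood at 490, 552 and 512 FPKM in the female Cav1-KO hypoxia libraries and at 1049, 1432 and 1987 in the female libraries labelled Cav1-RC in hypoxia. In males it stood at 414, 520 and 379 against 1143, 1191 and 1147. Groups did not overlap in either sex, and the male libraries labelled Cav1-RC lay close together while the female ones spread widely. The log2 fold change was 1.51 (SE 0.26, adjusted p = 0.00807, edgeR) in females and 1.39 (SE 0.15, adjusted p = 0.000357, edgeR) in males.

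H2-Eb2, the second E beta-like chain, was at 0.355, 0.540 and 1.18 FPKM in female Cav1-KO hypoxia and at 1.93, 2.71 and 3.69 in female Cav1-RC hypoxia. The male libraries held 1.17, 0.631 and 0.332 against 2.72, 4.25 and 3.23. No Cav1-KO library reached the lowest library labelled Cav1-RC in its sex. The log2 fold change was 1.97 (SE 0.47, adjusted p = 0.0224, edgeR) in females and 2.22 (SE 0.41, adjusted p = 0.00295, edgeR) in males. In contrast H2-Eb1, whose promoter carries the same box layout, had log2 fold changes of 0.48 (SE 0.24) and 0.05 (SE 0.17), neither called.

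H2-Oa, the alpha chain of DO, stood at 1.02, 0.939 and 1.72 FPKM in female Cav1-KO hypoxia and at 2.79, 3.80 and 4.44 in the female Cav1-RC libraries, with no overlap and a log2 fold change of 1.57 (SE 0.36, adjusted p = 0.0192, edgeR). The male values were 1.14, 2.89 and 0.590 against 2.05, 2.37 and 1.18 FPKM. Here the groups overlapped, and the difference of 0.30 (SE 0.54) was not called. The transactivator Ciita stood at 2.94, 3.15 and 4.50 FPKM in female Cav1-KO hypoxia against 6.93, 6.45 and 18.2 in female Cav1-RC hypoxia, and its log2 fold change was 1.56 (SE 0.39, adjusted p = 0.0266, edgeR). Male Ciita was at 12.9, 4.15 and 3.07 FPKM against 8.57, 9.89 and 14.2, so that the first Cav1-KO library lay among the Cav1-RC libraries, and the difference of 0.68 (SE 0.46) was not called. Without that library Ciita passed in males at 1.59 (adjusted p = 0.00219, edgeR).

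The remaining 6 members were not called in either sex. In females H2-Aa, H2-Ab1, H2-DMb1 and H2-Ob did not overlap between the groups and had log2 fold changes of 0.51 to 0.58, under the fold threshold and with adjusted p above 0.05. With the called genes that made 8 of 10 members above without overlap, beside 22.4% of all genes tested. In males the classical chains differed by 0.05 to 0.13 and H2-Ob by −0.13. The median over the 10 members was 0.57 in females and 0.19 in males, beside −0.01 and −0.02 over all genes tested. Female Cav1-KO hypoxia 2, the library of this comparison with Ddx3y out of place, was also taken out. Cd74 stayed called in females at 1.57 (adjusted p = 0.0409, edgeR). H2-Eb2 at 1.83 (adjusted p = 0.0816, edgeR), H2-Oa at 1.41 (adjusted p = 0.0749, edgeR) and Ciita at 1.503 (adjusted p = 0.0927, edgeR) were no longer called.

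All Cav1-KO hypoxia libraries came from blotted animals and no Cav1-RC hypoxia library did, so both differences cannot be told apart in either sex. A fit of all 34 libraries with blotting as a term was also made. Only groups that hold both kinds of library inform this term, here female Control at either oxygen level and female Cav1-RC normoxia. Each held 1 blotted animal, and no male group held both kinds. Cd74 was then at 0.80 in females and 0.68 in males, and H2-Eb2 at 1.17 (adjusted p = 0.367, edgeR) and 1.42 (adjusted p = 0.267, edgeR), none called. Ciita in females was not called either at 0.78. Of all genes 2.13% and 2.19% were called with the term, beside 9.2% and 13% in the same fit without it. Of the 6 calls only that of H2-Oa in females held, at 2.12 (SE 0.51, adjusted p = 0.0216, edgeR). Taking out 1 library also mattered. Without female Cav1-KO hypoxia 1, Cd74 alone was called in females (1.46), as without the second library of that group. Without female Cav1-RC hypoxia 3, which held the highest Cd74 and Ciita of the study, H2-Eb2 at 1.71 (adjusted p = 0.0547) and Ciita at 0.90 were not called.

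**Figure D2:**
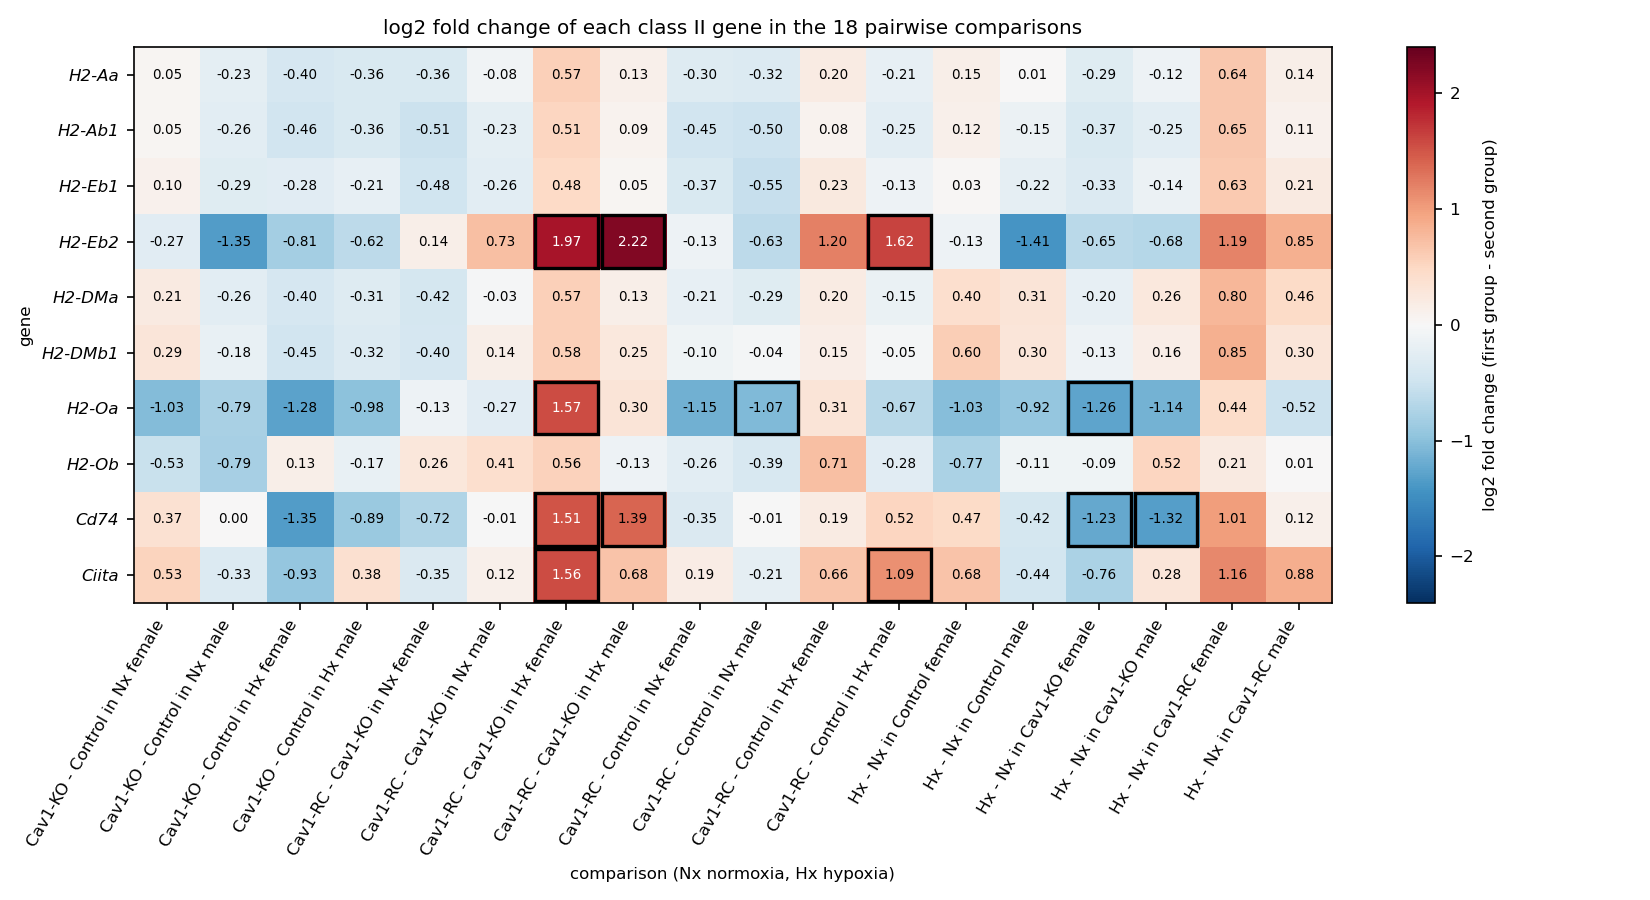
Heat map of log2 fold changes (first group minus second) of the 10 members, in rows, over the 18 pairwise comparisons, in columns; black frames mark calls by edgeR's quasi-likelihood test (absolute log2 fold change above 1, adjusted p under 0.05). Frames stand mainly on H2-Eb2, Cd74, H2-Oa and Ciita where the Cav1-KO hypoxia libraries or the Cav1-RC hypoxia libraries enter, and no frame stands on H2-Aa, H2-Ab1, H2-Eb1, H2-DMa, H2-DMb1 or H2-Ob.

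Hypoxia against normoxia in Cav1-KO mice lowered Cd74 in both sexes and H2-Oa in females. Cd74 was at 1317 and 1099 FPKM in female and at 1049, 1161 and 1037 in male Cav1-KO normoxia, and all hypoxia values given above lay below them, with the highest at 552. Its log2 fold change was −1.23 (SE 0.13, adjusted p = 0.00116, edgeR) in females and −1.32 (SE 0.13, adjusted p = 0.000114, edgeR) in males. H2-Oa was at 2.87 and 3.02 FPKM in female and at 3.52, 3.38 and 2.89 in male Cav1-KO normoxia. It fell in females by 1.26 on the log2 scale (SE 0.35, adjusted p = 0.0276, edgeR), whereas the male difference of −1.14 (SE 0.47) was not called, the second male hypoxia library reaching 2.89 FPKM.

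Thus 2 of 10 members were called in female and 1 of 10 in male Cav1-KO lungs, where 13.3% and 17.7% of all tested genes were called. Below their normoxia values without overlap lay 7 of 10 members in females and Cd74 alone in males, beside 31.5% and 32% of all genes tested. The median over the members was −0.35 in females and −0.13 in males, beside 0.02 and 0.01 over all genes. A further library, kept out of every comparison because its label leaves its group uncertain, bears on this result. The blot list gives its animal number as female Cav1-KO normoxia, and it held 307 FPKM of Cd74, below all Cav1-KO hypoxia libraries. Ciita in females, at 6.49 and 5.44 FPKM in normoxia, differed by −0.76 (SE 0.20), short of the fold threshold. These comparisons use the same Cav1-KO hypoxia libraries as the comparison with Cav1-RC, so the results are not independent. Blotting again cannot be told apart from oxygen here. With blotting as a term, which no male group informs, the Cd74 differences were −0.51 in females and −0.60 in males, neither called. Of all genes 0.277% and 0.398% were called with that term, beside 8.74% and 15% in the same fit without it. The library labelled female Cav1-KO hypoxia 2 was the only one in this comparison with a sex marker out of place, its Ddx3y. Without it Cd74 stayed called at −1.26 (adjusted p = 0.0058, edgeR) and H2-Oa did not at −1.08 (adjusted p = 0.0683, edgeR). H2-Oa also lost its call without female Cav1-KO hypoxia 1 (−1.15), normoxia 1 (−1.30) or normoxia 2 (−1.23). In males H2-Oa passed at −1.89 without male Cav1-KO hypoxia 2, and H2-Eb2 passed at −1.28 without female hypoxia 3 and at −1.29 without male hypoxia 1.

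Hypoxia left no member called in Control or Cav1-RC mice. In edgeR 0 of 10 were called in female Control, male Control, female Cav1-RC and male Cav1-RC lungs, with 2, 1, 4 and 4 members at an unadjusted p under 0.05, and DESeq2 called 0, 1, 0 and 0. Over all genes tested, 821 of 17136, 6447 of 17853, 914 of 17566 and 4338 of 17058 had an unadjusted p under 0.05. The shares of all tested genes called were 0.0175%, 6.36%, 0.0285% and 2.27%. The first of these was 8.47% when the only blotted animal of each female Control group was left out, a setting chosen after the data had been seen, and no member was called there. In female Control H2-DMa, at 0.40 (SE 0.22, adjusted p = 0.871, edgeR), shared the smallest adjusted p with members of smaller unadjusted p. It was at 40.4, 57.8 and 61.6 FPKM in hypoxia against 47.4, 33.3 and 38.3 in normoxia, which overlapped. Without overlap H2-DMb1 lay higher in hypoxia (49.0 to 70.0 against 32.7 to 45.3 FPKM) and H2-Oa lower (2.81 to 3.16 against 3.64 to 10.1), beside 4.18% and 4.57% of all genes. In male Control H2-Oa had the smallest adjusted p, at 3.70, 2.30 and 2.76 FPKM in hypoxia against 5.52, 6.59 and 4.76, with no overlap. Its log2 fold change of −0.92 (SE 0.26, adjusted p = 0.0470, edgeR) did not reach the fold threshold.

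Libraries labelled Cav1-RC had higher values in hypoxia for most members without reaching a call. In females 9 of 10 members lay above their normoxia values without overlap, where normoxia held only 2 libraries and 10.1% of all genes tested did so, and the median over members was 0.73. H2-DMb1 had the smallest adjusted p, with 51.9, 59.0 and 94.4 FPKM in hypoxia against 35.03 and 40.0 and a log2 fold change of 0.85 (SE 0.29, adjusted p = 0.822, edgeR). In males Ciita was at 8.57, 9.89 and 14.2 FPKM in hypoxia against 5.93, 6.65 and 5.36, without overlap. Its log2 fold change of 0.88 (SE 0.17, adjusted p = 0.0202, edgeR) was under the fold threshold, and it passed at 1.02 without male Cav1-RC hypoxia 1. The libraries labelled male Cav1-RC normoxia 1 and 2 in this comparison did not match their labelled sex.

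In Cav1-KO against Control the members did not pass the call rule in any of the 4 comparisons by edgeR. The numbers at an unadjusted p under 0.05 were 0 and 3 in normoxia and 5 and 1 in hypoxia, for females and males in turn, and DESeq2 called 0, 1, 2 and 0. Over all genes tested, 1981 of 17269, 5067 of 17439, 5140 of 17699 and 3464 of 17759 had an unadjusted p under 0.05. The shares of all tested genes called were 0.122%, 5%, 0.768% and 0.929%. In female normoxia Ciita had the smallest adjusted p, at 6.49 and 5.44 FPKM in Cav1-KO against 3.51, 3.45 and 5.35 in Control, with a log2 fold change of 0.53 (SE 0.25, adjusted p = 0.472, edgeR). These groups lay apart by a narrow margin. In male normoxia H2-Ob, the beta chain of DO, was at 7.13, 6.44 and 5.93 FPKM against 12.1, 13.1 and 8.48, without overlap, and differed by −0.79 (SE 0.17, adjusted p = 0.0230, edgeR). Its partner H2-Oa there had a log2 fold change of −0.79 as well (SE 0.19), with 3.52, 3.38 and 2.89 FPKM against 5.52, 6.59 and 4.76.

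In hypoxia Cd74 came closest to a call against Control. It was at 490, 552 and 512 FPKM in female Cav1-KO against 729, 1549 and 1659 in female Control, and at 414, 520 and 379 against 1002, 786 and 618 in males. Every Cav1-KO library lay below every Control library of its sex. The log2 fold change was −1.35 (SE 0.32, adjusted p = 0.0857, edgeR) in females and −0.89 (SE 0.21, adjusted p = 0.0762, edgeR) in males. The lowest female Control library, at 729 FPKM, was the only blotted animal of its group, and between blotted animals alone the female difference was −0.50, with 1 Control library against 3 and so no spread of its own in the Control arm. All male libraries of this comparison came from blotted animals, so that difference stands within 1 blotting status. Without female Control hypoxia 1, Cd74 at −1.63, H2-Oa at −1.22 and Ciita at −1.23 were called in females. In male normoxia H2-Eb2 was called at −1.78 without male Control normoxia 3.

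Cav1-RC against Cav1-KO in normoxia showed no member called, with 0 and 4 members at an unadjusted p under 0.05 in females and males by edgeR and 0 called by DESeq2. Over all genes 0.1% and 3.59% were called, and 1482 of 16981 and 4471 of 17143 had an unadjusted p under 0.05. In females 6 members were lower and 1 was higher in the libraries labelled Cav1-RC without overlap, between 2 and 2 libraries, beside 21% and 20.8% of all genes tested. The smallest adjusted p was that of H2-DMa, at 33.8 and 35.03 FPKM against 47.7 and 44.6, with a log2 fold change of −0.42 (SE 0.18, adjusted p = 0.590, edgeR). In males H2-Ob was at 8.69, 9.63 and 7.47 FPKM against 7.13, 6.44 and 5.93, without overlap, and its log2 fold change of 0.41 (SE 0.11, adjusted p = 0.0373, edgeR) was under the fold threshold. The first and second of these Cav1-RC libraries did not match their labelled sex. Without female Cav1-RC normoxia 2, Cd74 was called in females at −1.47, and without male Cav1-KO normoxia 2, H2-Eb2 was called in males at 1.05.

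Against Control, the libraries labelled Cav1-RC in hypoxia had higher H2-Eb2 and Ciita in males. H2-Eb2 was at 2.72, 4.25 and 3.23 FPKM against 1.83, 0.806 and 0.578 in male Control hypoxia, and Ciita at 8.57, 9.89 and 14.2 against 7.08, 3.61 and 4.47. Neither gene overlapped between the groups. The log2 fold changes were 1.62 (SE 0.41, adjusted p = 0.0165, edgeR) for H2-Eb2 and 1.09 (SE 0.26, adjusted p = 0.0135, edgeR) for Ciita, so that 2 of 10 members were called beside 9.9% of all genes. Without male Control hypoxia 2, which did not match its labelled sex, H2-Eb2 remained at 1.45 (adjusted p = 0.0230, edgeR) and Ciita fell under the fold threshold at 0.90 (adjusted p = 0.0163). All 3 Control libraries and no Cav1-RC library came from blotted animals, so blotting and genotype cannot be told apart. Ciita was not called without male Cav1-RC hypoxia 3 (0.85), male Control hypoxia 2 (0.90) or male Control hypoxia 3 (0.99), nor H2-Eb2 without male Cav1-RC hypoxia 2 (1.43).

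In female hypoxia no member was called against Control (0 by edgeR and DESeq2), beside 0.832% of all genes. An unadjusted p under 0.05 was reached there by 2 members and by 1460 of 17313 genes. H2-Ob was at 8.61, 9.40 and 9.35 FPKM against 6.58, 4.17 and 5.97, without overlap, and differed by 0.71 (SE 0.21, adjusted p = 0.260, edgeR). In male normoxia H2-Oa fell, from 5.52, 6.59 and 4.76 FPKM in Control to 2.59, 3.38 and 2.09 in libraries labelled Cav1-RC. These did not overlap, and the log2 fold change of −1.07 (SE 0.23, adjusted p = 0.0472, edgeR) made H2-Oa the only 1 of 10 members called, beside 2.45% of all genes. Without the libraries labelled male Cav1-RC normoxia 1 and 2, which did not match their labelled sex, it was −1.43 (adjusted p = 0.411, edgeR), with the lone remaining library taken to vary like Control. It was also lost without any single library of the comparison other than male Control normoxia 1, at −0.91 to −1.26. In female normoxia no member was called (0 by edgeR and DESeq2), beside 0.137% of all genes. An unadjusted p under 0.05 was reached by 0 members and by 733 of 17515 genes. No member had an adjusted p below that of H2-Aa, at 194 and 247 FPKM against 321, 231 and 263, with −0.30 (SE 0.26, adjusted p = 0.9999, edgeR) and overlap. Lower without overlap were H2-Ab1 (264 to 288 against 316 to 469 FPKM), H2-Eb1 (297 to 353 against 364 to 506) and H2-Oa (2.47 to 2.92 against 3.64 to 10.1), beside 8.52% of all genes.

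Over both sexes together, as the mean of the female and the male log2 fold change, 8 calls fell on 4 genes. Cav1-RC against Cav1-KO in hypoxia called H2-Eb2 at 2.10 (SE 0.34, adjusted p = 0.000295, edgeR), Cd74 at 1.46 (SE 0.15, adjusted p = 1.6e-05, edgeR) and Ciita at 1.13 (SE 0.35, adjusted p = 0.0168, edgeR), beside 14.7% of all genes. The classical chains there had 0.36 (SE 0.14) for H2-Aa, 0.31 (SE 0.14) for H2-Ab1 and 0.28 (SE 0.15) for H2-Eb1. Hypoxia against normoxia in Cav1-KO called H2-Oa at −1.20 (SE 0.33, adjusted p = 0.00814, edgeR) and Cd74 at −1.28 (SE 0.10, adjusted p = 9.24e-07, edgeR), beside 17.6%. Cav1-KO against Control in hypoxia called H2-Oa at −1.12 (SE 0.34, adjusted p = 0.0452, edgeR) and Cd74 at −1.12 (SE 0.20, adjusted p = 0.00751, edgeR), beside 4.14%. Cav1-RC against Control in hypoxia called H2-Eb2 at 1.41 (SE 0.34, adjusted p = 0.0287, edgeR), beside 3.73%. Libraries with a sex marker out of place were also left out of each contrast. H2-Oa in Cav1-KO against Control in hypoxia (adjusted p = 0.125, edgeR) was then no longer called. Nor was H2-Eb2 in Cav1-RC against Control in hypoxia, at 1.33 (adjusted p = 0.0575, edgeR). Blotting cannot be told apart from the groups in Cav1-RC against Cav1-KO in hypoxia or in hypoxia against normoxia in Cav1-KO, here as in each sex. With blotting as a term the 3 calls of the former were lost, with Cd74 at 0.74 (adjusted p = 0.0834, edgeR), H2-Eb2 at 1.29 (adjusted p = 0.184, edgeR) and Ciita at 0.34, while H2-Oa was called at 1.495. In hypoxia against normoxia in Cav1-KO, Cd74 was at −0.56 (adjusted p = 0.337, edgeR) and not called, while H2-Oa stayed called at −1.75. Of all genes 3.45% and 0.695% were called in these contrasts with the term, beside 15.3% and 16.5% in the same fit without it. The term again rests on female groups alone. Cd74 in Cav1-KO against Control in hypoxia (−0.84) and H2-Eb2 in Cav1-RC against Control in hypoxia (0.90) lost their calls too. H2-Oa stayed called at −1.32 in the former and was called besides in hypoxia against normoxia in Control (−1.18) and in Cav1-RC against Control in normoxia (−1.08).

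The other contrasts over both sexes had no member called by edgeR. Numbers at an unadjusted p under 0.05, and called by DESeq2, were 2 and 0 in Cav1-KO against Control in normoxia, 3 and 0 in Cav1-RC against Cav1-KO in normoxia and 3 and 1 in Cav1-RC against Control in normoxia. They were 2 and 0 for hypoxia in Control, and 8 and 2 for hypoxia in Cav1-RC. The shares of all genes called were 5.78%, 4.28%, 2.28%, 0.846% and 1.22% in the same order. An unadjusted p under 0.05 was reached by 5788 of 18540, 4421 of 18085, 2423 of 18545, 2531 of 18561 and 2768 of 18211 genes. H2-Eb2 had the smallest adjusted p for hypoxia in Cav1-RC, at 1.02 (SE 0.26, adjusted p = 0.0673, edgeR).

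Female and male fold changes were compared directly for the same 9 contrasts. No member differed between the sexes at an adjusted p under 0.05 (0 by edgeR and by DESeq2), and the share over all genes was 0% in each contrast. An unadjusted p under 0.05 was reached by 3 gene and contrast pairs among the members. Over all genes it was reached by 583 of 18545 to 3309 of 17929, by contrast. The largest sex difference among the members was that of Ciita in Cav1-KO against Control in hypoxia, female minus male −1.34 (SE 0.70). Since 4 libraries had a sex marker out of place, these values compare libraries as labelled.

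Whether the genotype difference itself depended on oxygen was tested as an interaction, a test added after these data had been seen. In males labelled Cav1-RC against Cav1-KO, Cd74 differed by −0.01 (SE 0.10) in normoxia and by 1.39 (SE 0.15) in hypoxia, and the hypoxia minus normoxia difference was 1.39 (SE 0.18, adjusted p = 0.000178, edgeR). H2-Eb2 differed by 0.73 (SE 0.26) and 2.22 (SE 0.41), and the interaction was 1.48 (SE 0.52, adjusted p = 0.0437, edgeR). These were 2 of 10 members beside 33.1% of all genes at an adjusted p under 0.05. Male Cav1-RC normoxia 1 and 2, which enter this male test, did not match their labelled sex. In females no member passed (0 by edgeR), beside 0.14% of all genes, with Cd74 at 2.25 (SE 0.52, adjusted p = 0.0693, edgeR). An unadjusted p under 0.05 was reached there by 9 members and by 5734 of 18513 genes. For Cav1-KO against Control 0 of 10 passed in females and males, beside 0% and 3.8% of all genes. There 4 and 1 members had an unadjusted p under 0.05, as had 4854 of 18527 and 4139 of 18464 genes. For Cav1-RC against Control 0 of 10 passed too, beside 0% and 6.89% of all genes. There 2 and 2 members had an unadjusted p under 0.05, as had 477 of 18354 and 4729 of 18323 genes.

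Other genes of the pathway were counted in the same way. Of the 21 genes listed for class II processing and regulation, among them the cathepsins, Ifi30, H2-DMb2, the RFX and NF-Y subunits and the costimulators Cd80 and Cd86, 18 could be tested. None was called in Cav1-RC against Cav1-KO in hypoxia, with a median log2 fold change of 0.15 in females and −0.08 in males, beside 8.98% and 14.8% of all genes called. In hypoxia against normoxia in male Cav1-KO, 1 of 18 was higher, Cd40, the receptor for the T cell help signal, beside 8.75% of all genes called higher, and the median was −0.03. H2-DMb2, a near copy of H2-DMb1 with which reads may be shared, was not called either, at 0.97 (adjusted p = 0.0447, edgeR) in female Cav1-RC against Cav1-KO in hypoxia.

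Class I presentation genes, which load peptides made in the cytosol, were compared beside the members. In male Cav1-KO hypoxia against normoxia 8 of 16 class I genes rose and none fell, beside 8.75% of all genes called higher and 8.97% called lower, among them H2-Q4 by 1.69 (SE 0.41, adjusted p = 0.00748, edgeR) and the immunoproteasome subunit Psmb10 by 1.17 (SE 0.23, adjusted p = 0.00233, edgeR), with a list median of 1.01, while Cd74 fell in the same libraries. The summed FPKM of the list did not separate the groups, at 2129, 2359 and 4734 in hypoxia against 2475 to 2506 in normoxia, so that 1 hypoxia library stood far above the others and the other two lay below every normoxia library. In females 1 of 16 fell (7% of all genes), B2m, the class I light chain, at −1.19 (SE 0.17, adjusted p = 0.00263, edgeR). B2m rose in male Cav1-RC against Cav1-KO in hypoxia by 1.07 (SE 0.21, adjusted p = 0.00377, edgeR), beside 8.16% of all genes called higher.

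Markers of the cells that carry class II did not all move one way. In female Cav1-RC against Cav1-KO in hypoxia 7 of 12 B cell markers, 4 of 12 dendritic cell markers, 2 of 13 macrophage markers and 3 of 10 alveolar type 2 markers rose and none fell, beside 5.58% of all genes called higher, with list medians of 1.34, 0.27, 0.73 and 0.49. In males 6, 1, 0 and 3 rose in the same order, beside 8.16% of all genes, with medians of 1.00, 0.10, 0.15 and 0.83, and 1 dendritic marker (Cd209a, −1.84) and 1 macrophage marker (Siglecf, −1.16) fell, beside 6.59% of all genes called lower. Of 10 markers of T cells, which see class II rather than carry it, 5 rose in females and 3 in males. The B cell gene Ms4a1 rose by 1.84 (SE 0.26, adjusted p = 0.000909, edgeR) in males. The summed FPKM of the 12 B cell markers lay at 18.2 to 58.9 in female Cav1-KO hypoxia and at 84.9 to 102 in female Cav1-RC hypoxia, and at 21.4 to 32.5 against 49.1 to 54.7 in males. The dendritic sum went the same way in females, 42.0 to 44.6 against 49.6 to 64.7, and the other way in males, 48.9 to 52.7 against 34.9 to 43.5. The macrophage sum overlapped, at 309 to 416.9 against 292 to 2469 in females and 253 to 319 against 246 to 342 in males. No B cell, T cell, dendritic or alveolar type 2 marker was at 0 in any library, and the part of cell composition in the differences of H2-Eb2, H2-Oa and Cd74 was not tested.

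In hypoxia against normoxia 3 of 10 alveolar type 2 markers fell in female Cav1-KO and 5 of 10 in male Cav1-KO, beside 7% and 8.97% of all genes called lower. In males Slc34a2, a phosphate transporter of these cells, fell by 2.31 on the log2 scale (SE 0.13, adjusted p = 1.25e-05, edgeR) and Etv5, a transcription factor that sustains them, by 1.88 (SE 0.11, adjusted p = 1.75e-05, edgeR). In male Cav1-RC against Cav1-KO in hypoxia Slc34a2 rose by 1.86 (SE 0.17, adjusted p = 0.000194, edgeR). Surfactant genes dominate the summed FPKM of the list, which overlapped in females, at 13644 to 17957 in Cav1-KO hypoxia and 14181 to 15209 in normoxia. In males it lay at 10679 to 12085 in male Cav1-KO hypoxia, at 13516 to 15321 in male Cav1-KO normoxia and at 14244 to 19420 in male Cav1-RC hypoxia. Macrophage markers fell too in female Cav1-KO hypoxia, 7 of 13 against normoxia and among them Adgre1 by 1.64 (SE 0.12, adjusted p = 0.000494, edgeR), and so did 5 of 12 dendritic markers, of which Itgae fell by 2.04 (SE 0.25, adjusted p = 0.00168, edgeR). Airway genes in the short list of lung tissue markers went the other way. The club cell gene Scgb1a1 rose in Cav1-KO hypoxia by 1.76 in females (SE 0.27, adjusted p = 0.0035, edgeR) and by 1.61 in males (SE 0.14, adjusted p = 6.64e-05, edgeR), and Foxj1, of ciliated cells, rose in females by 1.49 (SE 0.25, adjusted p = 0.00443, edgeR) and was at 0.98 in males. The summed FPKM of these 5 markers lay at 88383 to 126454 in female and 106811 to 122880 in male Cav1-KO hypoxia, at 38023 to 42669 and 43749 to 46076 in Cav1-KO normoxia, and at 60677 to 75722 and 57935 to 84036 in Cav1-RC hypoxia, without overlap. Its median was 116817 in the 12 libraries of blotted animals and 59987 in the other 22. The summed endothelial markers overlapped between Cav1-KO hypoxia and normoxia in both sexes. Whether any of these accounts for the change of Cd74 was not tested.

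Interferon gamma is the best known inducer of Ciita, and its response genes were compared for that reason. In male Cav1-RC hypoxia against normoxia 8 of 17 tested response genes rose, beside 1.42% of all genes called higher, with a list median of 1.10, among them the GTPases Gbp4 by 2.09 (SE 0.25, adjusted p = 0.00396, edgeR) and Igtp by 1.95 (SE 0.30, adjusted p = 0.0092, edgeR). The libraries labelled male Cav1-RC normoxia 1 and 2 in this comparison, and male Control hypoxia 2 in the next, did not match their labelled sex. Against male Control in hypoxia 6 of 17 rose (5.69% of all genes), among them Iigp1 by 1.90 (SE 0.46, adjusted p = 0.0134, edgeR). The summed FPKM of the list lay at 396 to 700 in male Cav1-RC hypoxia and at 220 to 279 in male Cav1-RC normoxia. In females, where none of 17 was called, it lay at 315 to 397 in hypoxia and 238 to 240.1 in normoxia, also without overlap. In male Cav1-KO hypoxia it spanned 221.7 to 811, and its highest library is the one that held 12.9 FPKM of Ciita, 65.2 of H2-DMa and 16.1 of H2-Ob, each the highest of its group. Ifng itself was at 0 in 7 of 34 libraries.

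Members followed each other across libraries to different degrees. Over 34 libraries, on log2 CPM (counts scaled to library size), Pearson's r was 0.94 between H2-Aa and H2-Ab1 and 0.95 between each of them and H2-Eb1, and 0.92 between H2-DMa and H2-DMb1. The classical chains also followed the DM chains, with 0.85 between H2-Aa and H2-DMa and 0.71 to 0.82 for the classical chains with H2-DMb1, and Ciita had 0.71 with either DM chain. Ciita correlated with H2-Eb2 at 0.79, Cd74 with H2-Eb2 at 0.73 and Cd74 with Ciita at 0.62. Within the 12 libraries of blotted animals and the other 22 these were 0.63 and 0.75, 0.55 and 0.43, and 0.02 and 0.74, so the pooled value of Cd74 with Ciita did not hold in the blotted animals. H2-Oa had 0.63 with H2-Ab1 (0.74 in blotted animals and 0.53 in the others) and 0.56 with Cd74 (0.77 and 0.07). In contrast H2-Ob and Cd74 had r = 0.06, as had H2-Oa and H2-DMb1. The chains of DO thus varied apart, with r = 0.41 between H2-Oa and H2-Ob, unlike the chains of DM. All these values share libraries, depth and scaling and are descriptions only.

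**Figure D3:**
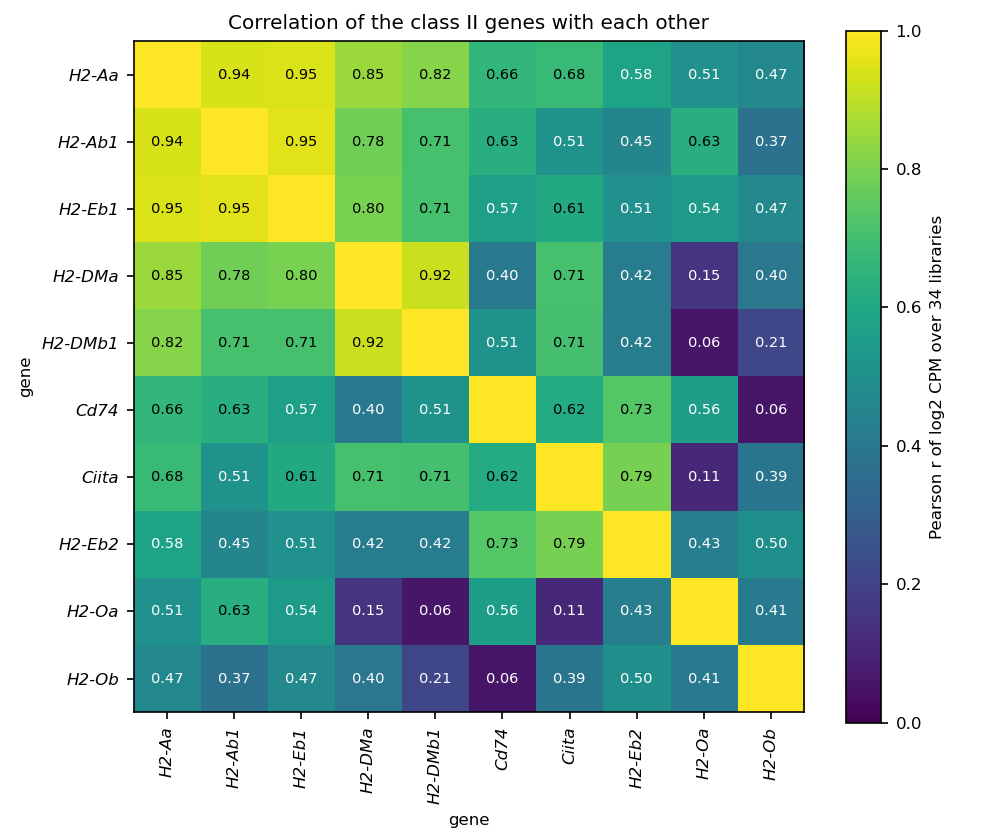
Pearson's r between members over 34 libraries (log2 CPM), with genes on both axes. The classical chains H2-Aa, H2-Ab1 and H2-Eb1 form a block at 0.94 to 0.95, and the lowest values, 0.06, are those of H2-Ob with Cd74 and of H2-Oa with H2-DMb1.

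Members differed in the marker list whose level they followed most closely. Against the mean log2 level of each list over the same 34 libraries, Cd74 correlated best with alveolar type 2 markers (r = 0.86, and 0.78 after group means were removed). After that removal macrophage markers were nearly level with these for Cd74 at 0.77, and endothelial markers had 0.64. H2-Oa correlated best with dendritic cell markers (0.85, and 0.66 within groups), H2-Eb2 with B cell markers (0.72 and 0.63, where macrophage markers were higher within groups at 0.66) and Ciita with interferon gamma response genes (0.71 and 0.66). Likeness to the mean log2 CPM of H2-Aa, H2-Ab1, H2-Eb1 and Cd74 was also ranked among 19870 genes. Apart from members the closest were Tmem106a (r = 0.80), Sap30bp (0.79), Nckap1l (0.78), Man2b1 (0.78), Gm2a (0.76), Slc35b2 (0.76), Zfp385a (0.76), B2m (0.76), Esyt1 (0.75) and Kars (0.75).

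Ratios within a library, free of depth, set Cd74 apart from the chains it escorts. H2-Ab1 over H2-Aa stayed at 1.12 to 1.48 and H2-Eb1 over H2-Aa at 1.29 to 1.75 in all 34 libraries. Cd74 over H2-Eb1 ranged from 0.848 to 3.45. It was 0.848 to 2.13 (median 1.52) in the 12 libraries of blotted animals and 1.78 to 3.45 (median 2.84) in the other 22. H2-Eb2 as a share of H2-Eb1 had a median of 0.197% in blotted animals and 0.457% in the others. In the 3 groups that held both kinds the blotted animal had the lowest ratio of its group, 1.98 against 3.34 and 3.45 in female Control hypoxia, 1.46 against 2.92 in female Cav1-RC normoxia and 1.84 against 2.15 and 2.77 in female Control normoxia. The level of Cd74 in the blotted animal was at 729 FPKM against 1549 and 1659 in female Control hypoxia, at 432 against 1031 in female Cav1-RC normoxia, and at 930 against 782 and 1083 in female Control normoxia. By level the blotted animal was thus lowest in the first and second of these groups and between the others in the third. Male Control normoxia, with no blotted animal, held Cd74 over H2-Eb1 as low as 1.78, and whether blotting status bears on the ratio was not tested beyond these values.

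**Figure D4:**
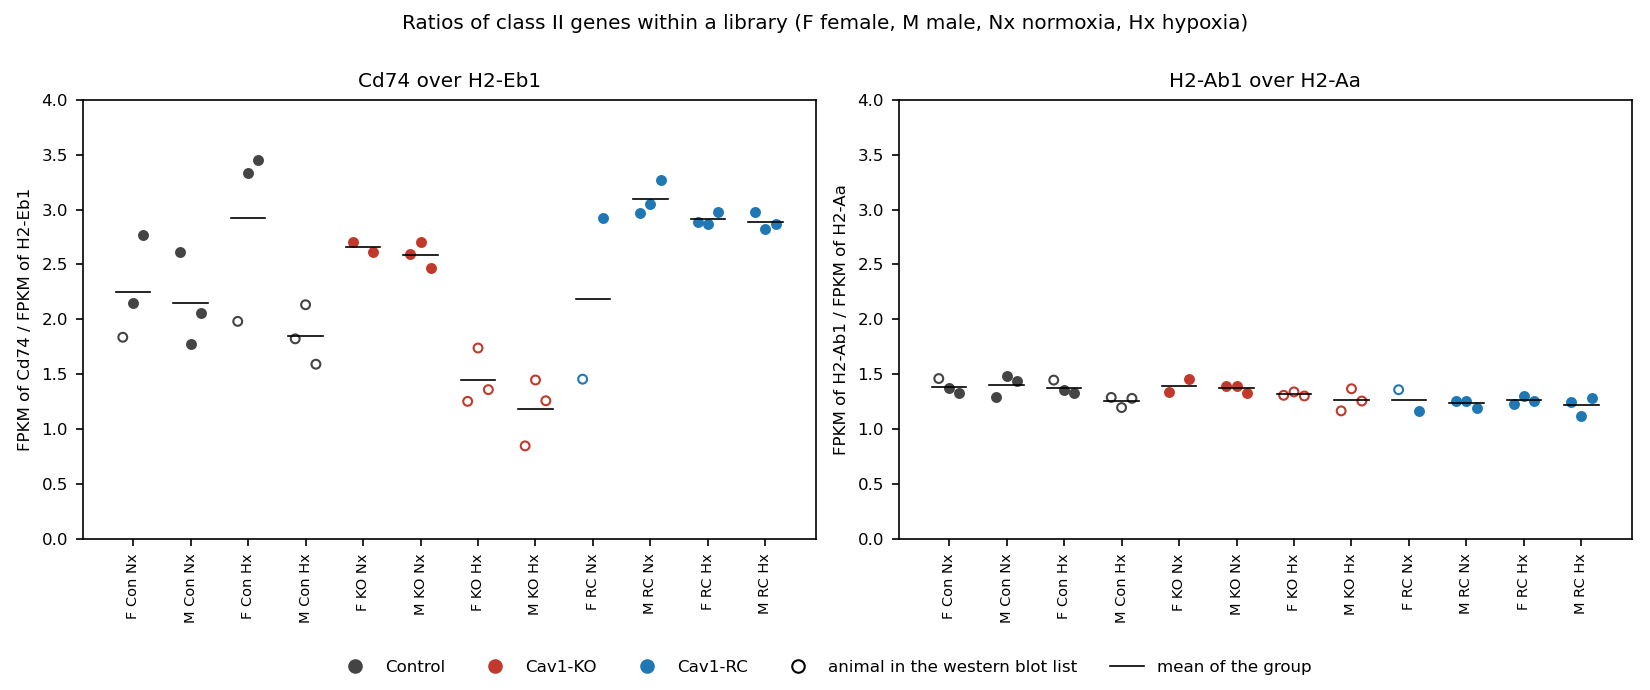
Ratio of Cd74 to H2-Eb1 FPKM (left) and of H2-Ab1 to H2-Aa FPKM (right) in each library by group; open points are blotted animals and lines are group means. The left ratio spreads from 0.848 to 3.45 with the lowest group means in Cav1-KO hypoxia, while the right stays between 1.12 and 1.48.

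Laboratory strains differ in class II haplotype, some having lost the E alpha chain, so genes switched on in a genotype and off in another were sought. Among the 137 genes of the file between H2-K1 and H2-D1 (chr17:33996017-35267499), 75 had a mean of at least 1 FPKM in some genotype, and 0 of these had a mean in another genotype under 0.1 times that level. The E alpha pseudogene H2-Ea-ps had 0 counts in 31 of 34 libraries and at most 1 count in the rest, at 0.0924 FPKM or less, while H2-Eb1 was at 285 FPKM or more in each. On-off differences between the 3 genotypes were thus not seen in these values, although reads of other haplotypes may map poorly to the reference.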

How the data were processed

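Poly(A)-selected, dUTP directional libraries of whole-lung RNA were made 1 per animal, all with the same batch date in the labels. The authors mapped reads to mm10 with HISAT2 2.0.5, counted read pairs per gene with featureCounts 1.5.0-p3 at default settings, and deposited these raw counts unpooled. The FPKM values were also computed and deposited by the authors, from counts, gene length and library size, and serve here as levels between genes. Counts were tested in R 4.3.3 with edgeR 4.0.16 (TMM scaling, filterByExpr, quasi-likelihood F-test, Benjamini-Hochberg adjustment over all genes tested), with each pairwise comparison fitted on its own 2 groups and the 9 contrasts over both sexes on their 4 groups. Calls needed a log2 fold change beyond 1 in either direction together with an adjusted p under 0.05, and only the latter for differences between sexes or oxygen levels. DESeq2 1.42.0, limma 3.58.1 on log2(FPKM + 1) or log2(FPKM + 0.1), other filters, a fit of all libraries, a replicate block, and leaving out each library were alternatives. All steps were tested on simulated counts.

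The members and the gene lists were chosen with earlier results of these data known. In each comparison called members are given with their error, and otherwise the member with the smallest adjusted p, and up to 3 genes of each list with the smallest adjusted p. Endothelial and lung tissue markers were listed as well, and 2 genes of the class II processing list were not found under their listed names. Depth of 12425535 to 33343006 counts a library limits mainly H2-Eb2 and H2-Oa. Replicate numbers did not pair the libraries (mean correlation of deviations from group means 0.02 over 177 pairs with the same number, above 0.1 in 32 of them). The library whose label leaves its group uncertain entered no comparison.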

Additional observations from a re-analysis of the deposited data

Results flagged for a closer look

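The difference between libraries labelled Cav1-RC and Cav1-KO in males depended on the oxygen level for 2 members, by an interaction test added after the data had been seen (edgeR's quasi-likelihood test, Benjamini-Hochberg adjustment, 3 libraries a group). For Cd74 the hypoxia minus normoxia difference of log2 fold changes was 1.39 (SE 0.18, adjusted p = 0.000178), and all 3 hypoxia libraries labelled Cav1-RC lay above all 3 Cav1-KO libraries while the groups overlapped in normoxia. For H2-Eb2 the same difference was 1.48 (SE 0.52, adjusted p = 0.0437). Of all genes tested 33.1% passed in this interaction, a larger share than the 2 of 10 members. The male Cav1-KO hypoxia libraries came from blotted animals and the other 9 libraries of this test did not, so blotting and the Cav1-KO hypoxia condition cannot be told apart. The libraries labelled male Cav1-RC normoxia 1 and 2, which enter this test, did not match their labelled sex.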

How the results depend on the processing

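Numbers of calls are pairs of a member and a comparison. Cav1-KO against Control had 0 calls, but 2 by adjusted p alone, 3 by DESeq2, 2 without the filter on low counts, 2 in 1 fit of all libraries and 1 with a blotting term added to that fit. Cav1-RC against Cav1-KO had 6 calls, against 1 with the blotting term, 3 by limma with either pseudocount and 3 without the libraries with a sex marker out of place. Cav1-RC against Control had 3 calls, against 1 in the fit of all libraries, 0 with the blotting term, 1 by limma on log2(FPKM + 1) and 1 without the libraries at odds with their labelled sex. Hypoxia against normoxia had 3 calls, against 7 by adjusted p alone, 5 by DESeq2, 5 without the low-count filter and 0 with the blotting term. The blotting term also changed the share of all genes called in the comparisons that held calls. In hypoxia against normoxia in Cav1-KO it was 0.277% in females and 0.398% in males, beside 8.74% and 15% in the same fit without the term. In male Cav1-RC against Control it was 0.337% in hypoxia and 2.43% in normoxia, beside 7.87% and 1.74%. Over both sexes there were 8 calls, against 14 by adjusted p alone, 5 with the blotting term and 5 by limma on log2(FPKM + 1). Differences between sexes numbered 0, and 1 without the low-count filter. The cause of these shifts was not tested. Fits within 1 blotting status, chosen after the data had been seen, tested none of these calls. They gave 0 calls for Cav1-RC against Cav1-KO, 1 for Cav1-RC against Control and 0 for hypoxia against normoxia, because the comparisons that hold the other calls have no libraries of a shared status, and the 1 call comes from a comparison that is wholly of 1 status. No direction reversed. With a replicate block, hypoxia against normoxia had 5 calls and both sexes together 6, and the numbers for Cav1-KO against Control (0), Cav1-RC against Cav1-KO (6), Cav1-RC against Control (3) and the sexes (0) did not move.

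Leaving out 1 library gave 0 to 3 calls in Cav1-KO against Control, 3 to 7 in Cav1-RC against Cav1-KO, 2 to 3 in Cav1-RC against Control, 2 to 4 in hypoxia against normoxia, 5 to 10 over both sexes and 0 to 4 between sexes. Over both sexes the lowest number came without male Cav1-KO hypoxia 3, where Ciita in Cav1-RC against Cav1-KO in hypoxia was 0.95. Ciita there was also not called without female Cav1-RC hypoxia 3 (0.79) or male Cav1-KO hypoxia 2, and H2-Oa in Cav1-KO against Control in hypoxia was called in only 3 of 12 such fits and H2-Eb2 in Cav1-RC against Control in hypoxia in 6 of 12. Cav1-KO against Control had 3 calls without female Control hypoxia 1 and 1 without male Control normoxia 3, and Cav1-RC against Cav1-KO had 3 without female Cav1-KO hypoxia 1 or 2. An arm left with 1 library was taken to vary like the other. Without female Cav1-RC normoxia 2, Cd74 differed between the sexes in Cav1-RC against Cav1-KO in normoxia (−1.47, adjusted p = 0.000371, edgeR), as did Ciita (−0.999) and H2-DMb1 (−0.63), and Cd74 for hypoxia in Cav1-RC (1.67). Without female Control hypoxia 1, Cd74 did so in Cav1-KO against Control in hypoxia (−0.77) and for hypoxia in Control (1.20), and H2-Ob in Cav1-RC against Control in hypoxia (1.14). Of the single log2 fold changes given with errors, 239 kept direction and side of the threshold when 1 library was left out, 40 lost the call and 7 gained it, and under the other alternatives 310 kept it, 46 lost it and 10 gained it.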

Other observations

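The label of 1 further library leaves its group uncertain and names female Cav1-KO normoxia as a possibility. The blot list gives its animal number as female Cav1-KO normoxia too, and it held 1.34 FPKM of Cav1. Its Cd74, at 307 FPKM, and its H2-Eb2, at 0.275 FPKM, lay below the lowest of the 34 grouped libraries, 379 and 0.332, while the grouped female Cav1-KO normoxia libraries held 1317 and 1099 FPKM of Cd74. H2-Eb1 at 303 FPKM, H2-Aa at 206.4 and Ciita at 3.23 lay within the range of the grouped libraries.

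Fold changes went opposite ways without overlap between groups in some female comparisons that share libraries. Cd74 was called on its own in hypoxia against normoxia in Cav1-KO and in Cav1-RC against Cav1-KO in hypoxia, and no difference between the paired fold changes was called. From normoxia to hypoxia H2-Aa, H2-Ab1, H2-Eb1, H2-DMa, Cd74 and Ciita all lay lower in Cav1-KO and higher in libraries labelled Cav1-RC. For H2-Aa the log2 fold changes were −0.29 (SE 0.12) and 0.64 (SE 0.33), and for Ciita −0.76 (SE 0.20) and 1.16 (SE 0.50). In Cav1-RC against Cav1-KO, H2-Aa, H2-Ab1, H2-DMb1 and Cd74 lay lower in normoxia and higher in hypoxia, with −0.72 (SE 0.45) and 1.51 (SE 0.26) for Cd74. In Cav1-KO against Control Cd74 lay higher in normoxia, at 0.37 (SE 0.23), and lower in hypoxia, at −1.35 (SE 0.32). The female normoxia groups of Cav1-KO and Cav1-RC held 2 libraries each, and the interaction test gave no member an adjusted p under 0.05 in females (edgeR).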
